A study of Arabidopsis thaliana with 47 samples.

Results

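The nitrogen response of Arabidopsis root protoplasts with bZIP1 in the nucleus and protein synthesis blocked was measured on 12 of the 47 arrays of the series. By their titles, 6 arrays came from nitrogen-treated cells and 6 from KCl-treated cells, all with GR::bZIP1, CHX and DEX. All 22746 probe sets other than controls were tested. Root protoplasts were made from Col-0 seedlings aged 10 days, transfected with a GR::bZIP1 fusion under the 35S promoter, and sorted for the red fluorescent protein on the same plasmid. Nitrogen cells received 20 mM KNO3 with 20 mM NH4NO3 for 2 h, and KCl cells received 20 mM KCl. All 12 samples then received cycloheximide (CHX), which stops protein synthesis, and 10 µM dexamethasone (DEX), which releases GR fusions into the nucleus. The protocol lists nitrogen first, then CHX, then DEX, so nitrogen was present before CHX was added. The 35S promoter is active in most cell types, so bZIP1 was made outside its native pattern, and Col-0 cells also keep their own bZIP1 gene, whose level is not analysed here.

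Nitrate acts on plant cells as a nutrient and as a signal. Within minutes it changes transcription through factors that already exist in the cell, so part of the response needs no new protein. Classic nitrate-responsive genes encode transporters, the enzymes that reduce nitrate and assimilate ammonium, the oxidative pentose phosphate enzymes that supply reducing power, and repressors of the HRS1/HHO family. bZIP1 is a basic leucine zipper factor known for its part in the response to low energy and in amino acid metabolism.

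Each condition was represented by Biorep 1 and Biorep 2 of the labels, with 3 treatment replicates each. The titles do not say what a Biorep is, and it is taken here as a preparation. Nothing in the labels says that treatment replicates were separate cultures, so p-values measure the spread between these arrays, which may be technical. Values are deposited log2 levels. Between 29.13% and 31.54% of the values of an array lay at the lowest level, 2.298, and array medians ran from 2.915 to 2.969. Arrays of 1 condition and 1 Biorep correlated at 0.991 or above, and those of different Bioreps at 0.9777 to 0.9875. In a principal component analysis, component 1 (50.6% of variance) split the Bioreps, with 96.9% of its spread lying between them. Component 2 carried 9.14%, and nitrogen accounted for 86.8% of that component. Most root cell type markers were not named on the array. The root hair genes EXPA7 and EXPA18 averaged 2.40 and 2.30 in nitrogen cells, against 2.30 and 2.30 in KCl cells. The leaf gene RCA averaged 2.74 in nitrogen cells and 2.73 in KCl cells. All 3 were at or near the floor, so these markers do not place the cells within the root.

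Nitrogen changed 35 of 22746 probe sets, 0.154% of those tested, at an adjusted p under 0.05 (limma with Biorep as a covariate, Benjamini-Hochberg adjustment). Of these, 18 (0.0791% of those tested) were higher and 17 (0.0747%) lower in nitrogen cells than in KCl cells. Before adjustment 1573 probe sets had p under 0.05. Among the called probe sets, 9 rose and 4 fell by at least 2-fold. All 35 moved the same way in both Bioreps, and in all 35 the nitrogen and KCl arrays did not overlap within either Biorep. Over all probe sets that separation held for 1.34%. Over all 12 arrays 15 of the 35 did not overlap, against 0.317% of all probe sets. The 35 were called from these same arrays, so their shared direction and separation follow largely from the call and are no separate support. The median effect over the 9400 probe sets with a mean level above 4 was 0.01, and 52.3% of them were positive. In bulk samples, fewer cells of a type and less RNA per cell cannot be told apart.

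The count moved with the settings. With only probe sets above a mean level of 4, 155 of 9400 passed, 1.65% of those tested, with 47 higher (0.5%) and 108 lower (1.15%). Centring each array on its median gave 24 higher and 42 lower. Leaving out any 1 of the 12 arrays left between 11 and 27 calls. The highest, 27, came without nitrogen replicate 3 of Biorep 2. Removing any of the other 11 arrays left 23 or fewer and moved the count by over 1.5 times, and the lowest, 11, came without nitrogen replicate 2 of Biorep 1. Without the Biorep covariate 1 probe set passed. Biorep 2 alone gave none with limma, and Biorep 1 alone gave 6.

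**Figure D1:**
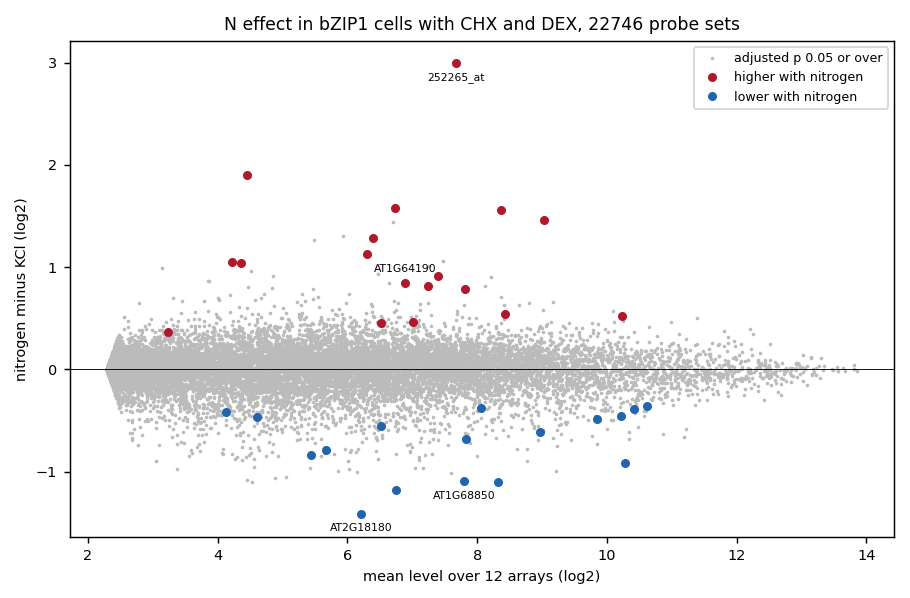
Mean level over the 12 arrays (x axis, log2) and nitrogen minus KCl (y axis, log2) of each of 22746 probe sets. Red points are the 18 called higher and blue points the 17 called lower with nitrogen, and they lie at levels from 3.242 to 10.611.

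A single gene could be named for 16 of the 35, 5 higher and 11 lower. The strongest response lay in a probe set with no matched gene. Probe set 252265_at ran from 8.68 to 9.75 with a median of 9.14 in nitrogen cells, against 5.69 to 6.55 with a median of 6.26 in KCl cells. That is 2.99 higher on the log2 scale (SE 0.10, adjusted p = 3.57e-06, limma), a 7.96-fold difference, and the lowest nitrogen array lay above the highest KCl array. Probe set 265475_at was 1.90 higher (SE 0.14, adjusted p = 0.000997, limma) and likewise showed no overlap.

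Among named genes that rose, AT1G64190 encodes a 6-phosphogluconate dehydrogenase, an enzyme of the oxidative pentose phosphate pathway that makes NADPH. Its level ran from 6.99 to 7.90 with a median of 7.22 in nitrogen cells, against 5.86 to 7.08 with a median of 6.56 in KCl cells. The 2 sets of 6 arrays overlapped because Biorep 2 lay higher in both, but within each Biorep they did not. The difference was 0.85 (SE 0.12, adjusted p = 0.039, limma), with 0.96 in Biorep 1 and 0.73 in Biorep 2.

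AT4G14930 encodes a SurE-like phosphatase. It ran from 7.37 to 7.82 with a median of 7.71 in nitrogen cells, against 6.61 to 6.99 with a median of 6.89 in KCl cells. The groups were apart over all 12 arrays, and the effect was nearly the same in the Bioreps, 0.83 and 0.80. Its log2 difference was 0.81 (SE 0.06, adjusted p = 0.000997, limma).

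AT1G49500, for which no role is given here, averaged 7.86 ± 0.09 in nitrogen cells and 6.94 ± 0.35 in KCl cells (SD, n = 6 each). All 6 nitrogen arrays lay between 7.67 and 7.94, above the KCl arrays, which spread from 6.41 to 7.34. AT5G20790 averaged 8.70 ± 0.51 in nitrogen cells and 8.16 ± 0.59 in KCl cells (SD, n = 6 each). AT1G11660, of the HSP70 chaperone family, averaged 6.75 ± 0.15 in nitrogen cells and 6.30 ± 0.13 in KCl cells (SD, n = 6 each). These 3 were higher by 0.91, 0.54 and 0.45 on the log2 scale.

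The largest fall among named genes was that of AT2G18180, which encodes a Sec14-like lipid transfer protein. Its level ran from 4.92 to 6.15 with a median of 5.56 in nitrogen cells, against 6.18 to 7.94 with a median of 6.87 in KCl cells. The highest nitrogen array lay just under the lowest KCl array. The difference was -1.41 (SE 0.20, adjusted p = 0.039, limma), with -1.58 in Biorep 1 and -1.25 in Biorep 2, and KCl cells had 2.67 times the level.

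AT1G68850 encodes a class III peroxidase, one of the secreted enzymes that act on cell wall phenolics and hydrogen peroxide. It ran from 6.99 to 7.53 with a median of 7.30 in nitrogen cells, against 8.03 to 8.94 with a median of 8.25 in KCl cells. No arrays overlapped, and the fall was alike in the Bioreps, -1.07 and -1.12. It was -1.09 in all (SE 0.14, adjusted p = 0.024, limma).

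AT3G49710, a pentatricopeptide repeat protein of a family that processes organelle RNA, averaged 5.02 ± 0.30 in nitrogen cells and 5.85 ± 0.25 in KCl cells (SD, n = 6 each). AT2G04500, a C1-domain protein, averaged 5.28 ± 0.16 in nitrogen cells and 6.07 ± 0.18 in KCl cells (SD, n = 6 each). Both were apart over all 12 arrays. AT4G14368, of the RCC1 family, fell by 0.68 on the log2 scale, and AT4G37900 and AT2G25735 fell by 0.61 and 0.48. In these 3 the groups were apart within each Biorep and overlapped over all 12 arrays.

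The other 4 falls were smaller and likewise apart within each Biorep only. AT1G14770, a RING/FYVE/PHD zinc finger protein, changed by -0.46. AT3G23620, a Brix-domain protein of ribosomal RNA processing, changed by -0.42 and lay near 4, at 3.92 in nitrogen cells and 4.34 in KCl cells. AT2G33710, an AP2/ERF transcription factor, changed by -0.39, and AT4G18950, a protein kinase, by -0.35. Adjusted p over the 16 named genes ran from 0.000997 to 0.0466 (limma), and 9 of the 16 passed in 1 fit of all 24 bZIP1 arrays with CHX.

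**Figure D2:**
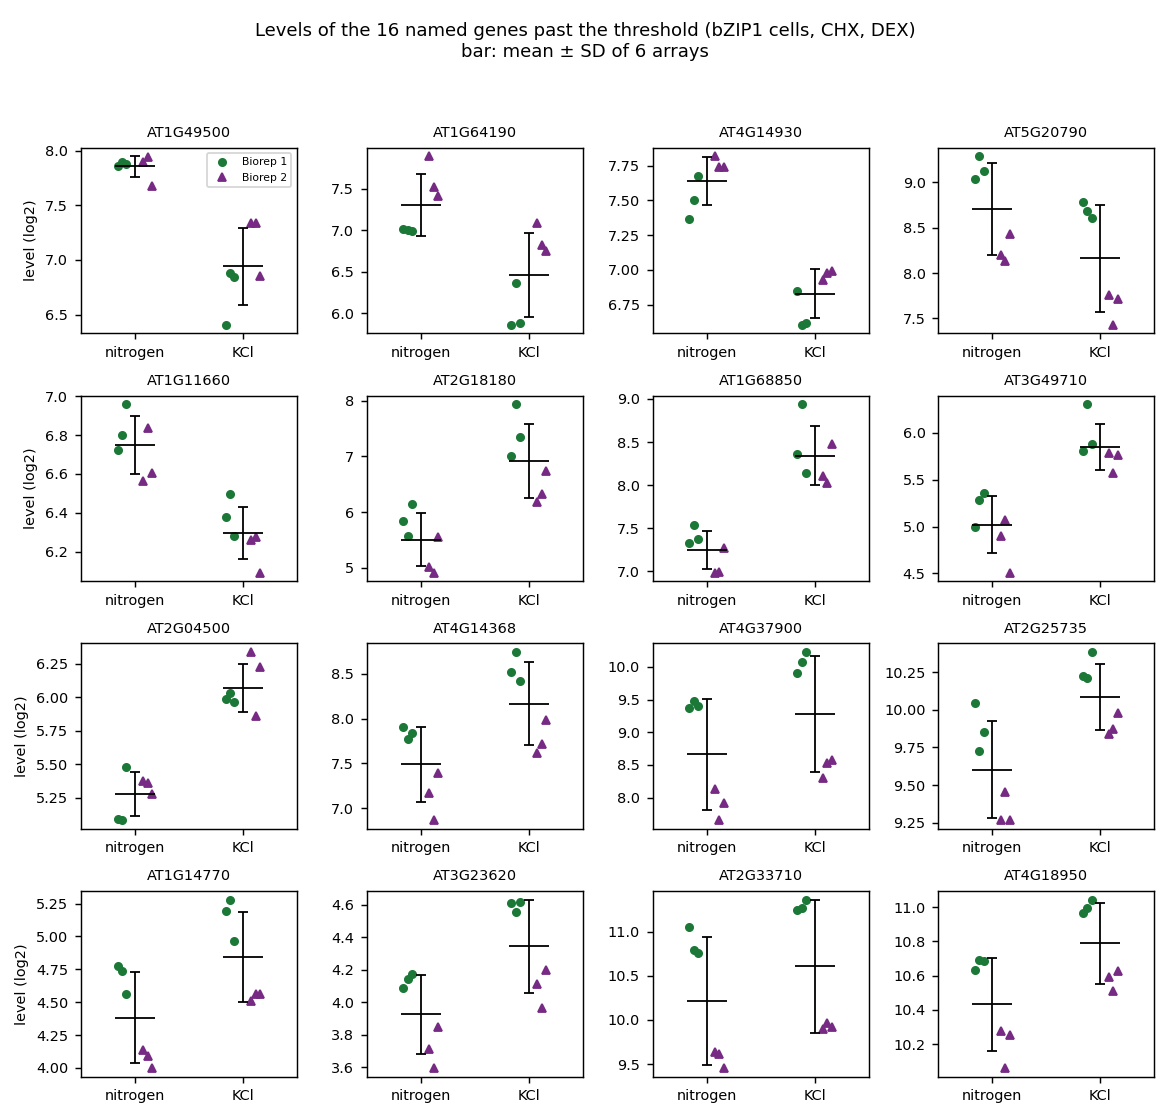
Level (y axis, log2) of the 16 named genes in the 6 nitrogen and the 6 KCl arrays, with circles for Biorep 1, triangles for Biorep 2 and a bar for the mean and SD. Within each Biorep the nitrogen and KCl arrays of every gene are apart, and in 7 genes they are apart over all 12 arrays.

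The lists of known nitrate genes were thinly covered by named probe sets. None of the 26 listed genes of nitrate and ammonium uptake and assimilation was named on the array, so they are not analysed here. Of 31 listed nitrate regulators, 7 genes had a named probe set, and none of these passed. The 9310 probe sets without a name, which include 13 of the 18 raised calls, may hold other members of both lists. HHO2 (AT1G68670), a repressor of the HRS1/HHO family, averaged 11.64 in nitrogen cells and 11.14 in KCl cells. Its difference of 0.50 (SE 0.13) had an adjusted p of 0.263 with limma, and of 0.027 in 1 fit of all 24 bZIP1 arrays with CHX. HHO3 (AT1G25550) and HHO5 (AT4G37180) differed by 0.14 and 0.18 with adjusted p of 0.203 and 0.366 (limma). HHO1 (AT3G25790), HHO6 (AT1G49560) and NRG2 (AT3G60320) lay at or near the floor in both conditions. The 2 probe sets of GAT1_2.1, a glutamine amidotransferase-like gene, differed by -0.0027 and 0.09. The 5 regulator probe sets above a level of 4 had a median of 0.14, against 0.01 over all.

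Of the 4 measured pentose phosphate genes AT1G64190 passed, against 0.154% of all probe sets. Its adjusted p was 0.057 in 1 fit of the 24 arrays (limma), so the call was lost there. A second 6-phosphogluconate dehydrogenase gene, AT5G41670, differed by 0.67 (SE 0.19) with an adjusted p of 0.358 (limma), and by 0.27 in Biorep 1 and 1.06 in Biorep 2. The third, AT3G02360, differed by 0.06 (SE 0.09).

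None of 16 measured genes of the heat shock list passed. The list does not hold AT1G11660, the HSP70-family gene that rose. In the list, 12 of the 13 above a level of 4 had a positive difference, with a median of 0.34. Over all 9400 probe sets at that level 52.3% were positive. The small heat shock gene AT1G54050 had the largest value, with 6.65 to 8.63 in nitrogen cells against 4.91 to 6.58 in KCl cells. The groups did not overlap, and its difference of 1.44 (SE 0.28) had an adjusted p of 0.124, or 0.009 with the filter on low values (limma). The co-chaperone Hop3, the small heat shock gene AT1G53540 and the immunophilin gene AT5G48570 differed by 0.93, 0.57 and 0.74, with adjusted p of 0.381, 0.444 and 0.605 (limma).

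Class III peroxidases were taken by locus after AT1G68850 had been seen, so their count is a description. Of 55 named on the array, 15 had a mean level above 4, and 14 of these had a negative difference, with a median of -0.28. Over all 9400 probe sets at that level 47.7% were negative. AT1G68850 was the 1 called of the 55, against 0.154% of all probe sets. With the filter on low values 4 of the 15 passed, itself included, against 1.65%. AT4G33420 differed by -0.89 (SE 0.16), AT1G14550 by -0.66 (SE 0.15) and AT5G64100 by -0.58 (SE 0.12). Their adjusted p was 0.086, 0.187 and 0.148, and with the filter 0.009, 0.036 and 0.034 (limma). AT5G39580 differed by -0.02.

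Other lists held no call among their named members. In starch metabolism DPE1, the plastid disproportionating enzyme of starch breakdown, differed by -0.995 (SE 0.16, adjusted p = 0.065, or 0.006 with the filter, limma). In the abscisic acid list AT2G42560, a late embryogenesis abundant gene, differed by 0.90 (SE 0.15, adjusted p = 0.068, or 0.007 with the filter, limma). Of 11 amino acid breakdown genes none passed. MCCB and IVD, of leucine breakdown, differed by 0.44 and 0.33, and the asparaginase gene ASPGB1 by -0.67, with adjusted p of 0.342, 0.497 and 0.600 (limma). Of 22 beta-glucosidases, 51 UDP-glycosyltransferases, 14 glutathione S-transferases and 7 WRKY factors none passed. Over all members, those at the floor included, the medians lay between -0.08 and 0.00. Above a level of 4 they were -0.12, 0.04, -0.07 and -0.10 in the same order.

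**Figure D3:**
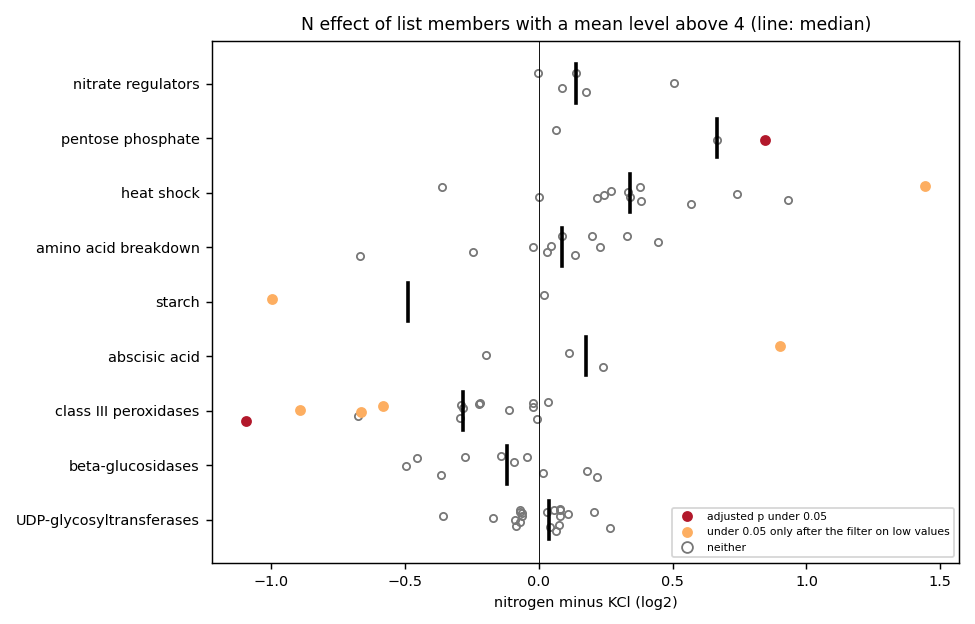
Nitrogen minus KCl (x axis, log2) of list members with a mean level above 4, 1 row of points for each list and a line at its median. Heat shock members lie mostly right of 0 around a median of 0.34, and class III peroxidases mostly left of it around -0.28.

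The same nitrogen contrast was measured without DEX, in 6 nitrogen and 6 KCl arrays with the same Biorep labels that shared no array with the comparison above. Of the 35 called probe sets, 33 had the same sign there, against 66.3% of the 9400 above a level of 4. The raised ones had a median effect of 0.73 without DEX and 0.97 with it, and the lowered ones -0.37 and -0.61. In their own fit 19 probe sets passed without DEX, 0.0835% of those tested, and 5 of the 35 were among them. When all 24 arrays shared 1 fit, 105 probe sets passed with DEX and 54 without, 0.462% and 0.237%. Both lists held 33 in the same direction, 31.4% of the first and 61.1% of the second.

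The difference of the nitrogen effect with and without DEX was tested directly, and no probe set passed (limma, 554 with unadjusted p under 0.05). For AT1G64190 the difference was 0.12, with a 95% interval from -0.45 to 0.69. For AT2G18180 it was -0.07, from -0.77 to 0.63, and for AT1G68850 0.17, from -0.54 to 0.88. AT1G11660 had 0.45 with DEX and -0.03 without, a difference of 0.48 with an interval from 0.10 to 0.87 before adjustment. AT4G18950 had -0.35 and -0.10, a difference of -0.26 (interval -0.38 to -0.13). Both had an adjusted p of 1 (limma). Other named calls whose interval left out 0 before adjustment were AT1G49500 (-0.60, from -1.08 to -0.13), AT2G04500 (-0.45, from -0.79 to -0.12) and AT4G14930 (0.32, from 0.06 to 0.59). Among unnamed calls the largest differences were -1.32 for 252367_at and -1.26 for 262325_at. The largest difference among named genes was that of AT3G60290, -1.07 with DEX and 0.28 without, also with an adjusted p of 1 (limma).

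In empty-vector cells with CHX and DEX, 3 nitrogen and 2 KCl arrays, 31 of the 35 had the same sign, against 60.6% of the 9400. AT1G49500 was 2.38 higher there (SE 0.32), AT1G64190 0.93 higher (SE 0.18), AT1G68850 was at -1.51 (SE 0.28) and AT2G18180 at -1.17 (SE 0.52). None of the 35 passed in that fit, where 11 probe sets did, 0.0484% of those tested. AT1G11660 and AT3G23620 had the opposite sign, at -0.11 and 0.65.

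Without CHX, in 3 nitrogen and 3 KCl arrays with DEX, 30 of the 35 had the same sign, against 56.8% of the 9400. The 30 include AT2G04500 and AT2G25735, which averaged 2.30 in both conditions there, so their sign carries no information. No probe set passed without CHX (limma, 783 with unadjusted p under 0.05). The raised probe sets had a median effect of 0.25 there and the lowered ones -0.04. The levels differed between the arms as well. Of the 17 lowered probe sets, 9 had a mean level under 3 without CHX, against 5.48% of the 9400. Of the 18 raised probe sets 1 did, 5.56%. In the empty-vector arm, which had CHX, 1 of the 17 lowered probe sets lay under 3, against 0.723% of the 9400. The named genes among the lowered probe sets under 3 without CHX were AT2G18180, AT3G49710, AT2G04500, AT4G14368 and AT2G25735. Without CHX they averaged 2.33, 2.34, 2.30, 2.66 and 2.30 in nitrogen cells. In KCl cells without CHX they averaged 2.31, 2.38, 2.30, 2.65 and 2.30. The floor of the arm without CHX was 2.303, and a fall can hardly be measured so close to it. The lowest value differed between the arms, 2.303 without CHX, 2.298 with CHX and 2.287 with the empty vector, so their levels may not be on 1 scale. CHX cannot be told apart from preparation.

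The difference of the nitrogen effect with and without CHX passed for 11 probe sets, 0.0484%, with 8 higher and 3 lower with CHX. Of the 11, 3 were among the 35 called for nitrogen, and 3 differed by at least 1. Those that could be named, chosen here after their values were seen, were AT2G43990, AT5G44520 and AT5G15520. They lay at or near the floor with CHX and differed by 0.02, 0.12 and 0.21. Some unnamed ones likewise lay near the floor with CHX, and others, picked in the same way, did not. A probe set at 12.44 in nitrogen and 12.40 in KCl cells with CHX had effects of 0.05 with CHX and 0.99 without. Another, at 10.3 and 10.5, had -0.21 and -1.30, a difference of 1.09. Probe set 253036_at had 1.04 with CHX and 0.00 without, where it averaged 2.47 and 2.46, near the floor. Larger differences did not pass. AT2G18180 differed by -1.43 with an adjusted p of 0.259 (limma), and DLAH, a lipase gene, by 1.23, with -0.30 with CHX and -1.52 without it (adjusted p = 0.259, limma).

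**Figure D4:**
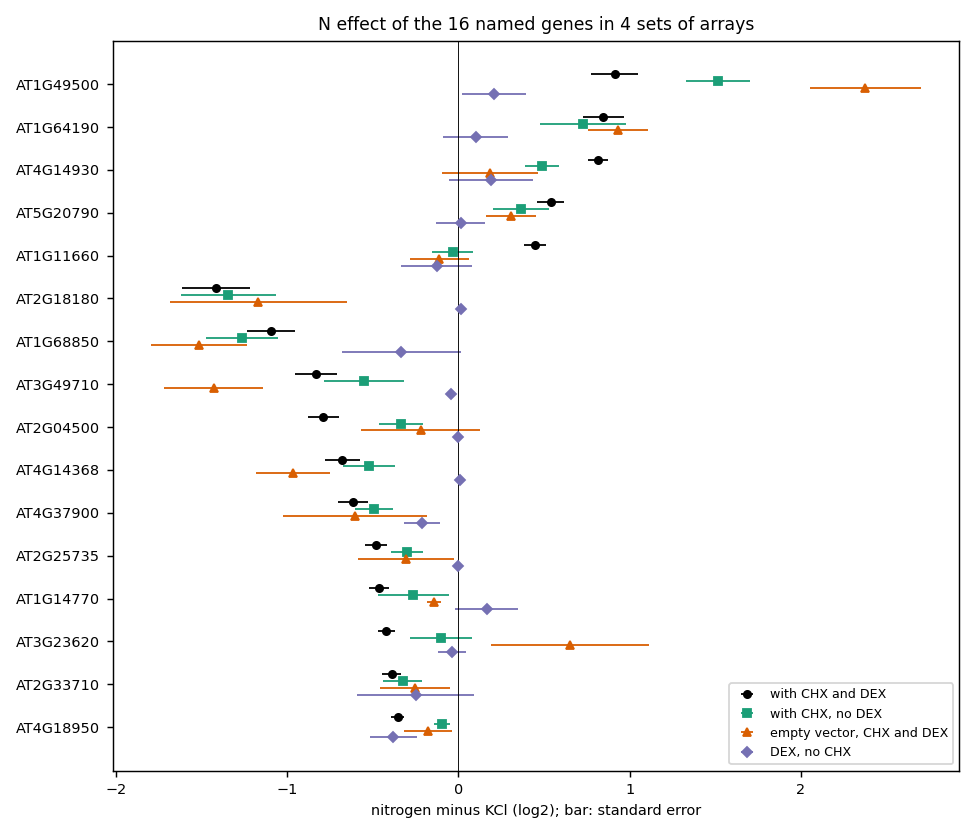
Nitrogen minus KCl (x axis, log2) of the 16 named genes in 4 sets of arrays, with bars for the standard error. The points with CHX and DEX and those with CHX alone lie on the same side of 0 in all but AT1G11660, and without CHX 5 of the lowered genes have a mean level under 3.

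The nitrogen effect did not differ between the Bioreps at the threshold for any probe set (limma, 542 with unadjusted p under 0.05). The nearest was AT3G22800, an extensin-like gene, with -1.33 in Biorep 2 and -0.15 in Biorep 1 (difference -1.18, SE 0.12, adjusted p = 0.058, limma). For AT1G49500 the effects were 0.66 in Biorep 2 and 1.16 in Biorep 1, a difference of -0.50 with an interval from -1.03 to 0.03.

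**Figure D5:**
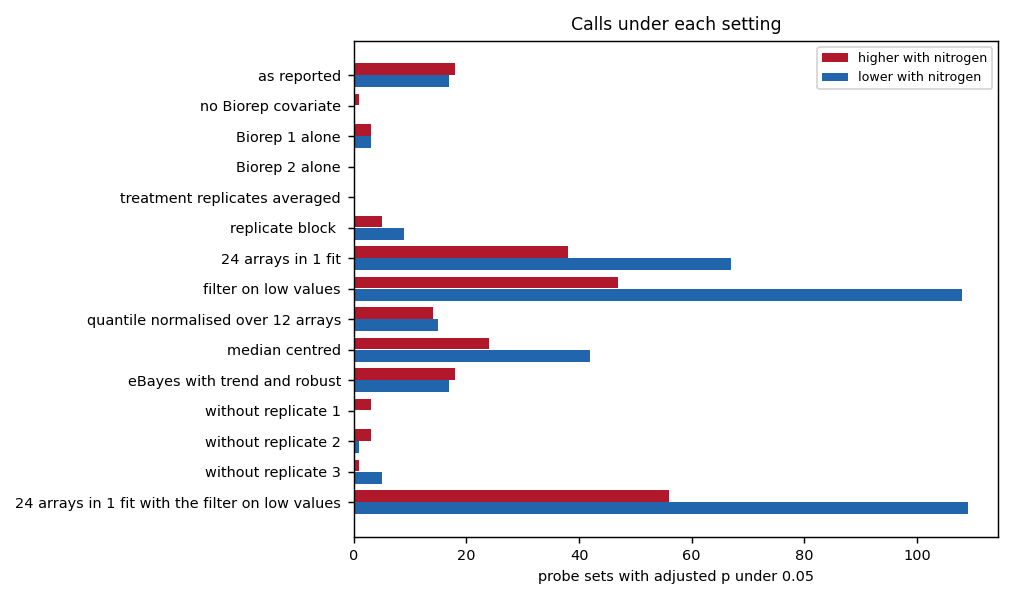
Probe sets called (x axis, count) higher or lower with nitrogen under each setting. The reported setting has 18 and 17, the filter on low values 47 and 108, and Biorep 2 alone 0 and 0.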

How the data were processed

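The deposited values are log2 levels of Affymetrix ATH1 arrays, 22810 probe sets each, made with GCRMA per the submitters' processing notes, which give no version. The build and annotation used are not given in the sources used here. After 64 controls were left out, 22746 probe sets were tested on the values as deposited with limma 3.58.1 in R 4.3.3 (two-sided, Benjamini-Hochberg, threshold 0.05). Biorep was a covariate. Groups came from the titles. Probe sets were named through a table that matched 13436 to 1 locus of TAIR10.1, and 9310 are not named. Genes could be named by rule, and not all are described: among calls with 1 gene, up to 15 each way by size, if both Bioreps moved alike, then at most 4 members per list by lowest adjusted p, all nitrate members, and the 5 largest differences each way. The members and lists were chosen with earlier results of these data known. Pairing of same-numbered treatment replicates was weak but not absent: their 6 residual correlations ran from 0.0257 to 0.138, 2 of them over 0.1. The 12 pairs with different numbers in a Biorep ran from -0.103 to 0.036. Precision is limited by the number of arrays and by the floor. The fits were tested on simulated arrays with independent noise and changes planted only above a mean level of 4. That test does not cover changes at the floor or the weak pairing. Alternatives are given below.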

Additional observations from a re-analysis of the deposited data

Results flagged for a closer look

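AT1G49500 had 1 nitrogen array far from the other 5. Nitrogen replicate 3 of Biorep 2 lay at 7.67, with the others between 7.86 and 7.94. Of 40 groups of 6 arrays tested this way 1 stood out, and chance gives about 1 in 20.

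The probe set 264659_at had a nitrogen effect that differed with and without CHX by -1.06 (adjusted p = 0.033, limma). The effect was -1.10 with CHX and -0.04 without it, and its level without CHX was 2.30 in nitrogen cells and 2.34 in KCl cells, at or near the floor.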

How the results depend on the processing

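The count of 35 called probe sets moved to 1 without the Biorep covariate, 6 in Biorep 1 alone, 0 in Biorep 2 alone, 0 with treatment replicates averaged, 105 with all 24 arrays in 1 fit, 155 with the filter on low values, 66 with median centring, and 165 with both the 24 arrays and the filter, a setting chosen after seeing the data. Treatment replicate numbers gave a replicate block, although they paired the samples only weakly, and the block gave 14. Leaving out 1 array or 1 treatment replicate number gave 3 to 27. Quantile normalisation gave 29, and trend with robust estimation 35. Of the 35, 34 remained with the filter, 35 with median centring, 28 with quantile normalisation, 25 with the 24 arrays, 10 with the block, 1 in Biorep 1 alone, 1 without the Biorep covariate, 0 with replicates averaged or in Biorep 2 alone, and 2 without any 1 replicate number. No direction of the 16 named genes and 4 unnamed probe sets turned round in any setting. Their nitrogen and KCl arrays were apart within each Biorep, so most settings had to keep the direction. This is no separate support. The difference with and without DEX stayed at 0 under every alternative, the block included. The difference between Bioreps had 0 calls, and 1 to 15 without a replicate number. The difference with and without CHX had 11, against 6 without the Biorep covariate, 4 with the filter and 12 to 20 without a replicate number. The causes were not tested. Precision is limited by 3 arrays per Biorep and by the floor.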

Other observations

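With the filter on low values 70 further named genes passed, 14 higher and 56 lower with nitrogen. Over all 9400 probe sets of that fit 1.65% passed, 0.5% higher and 1.15% lower. In the arrays without DEX 67 of the 70 had the same sign, against 66.3% of the 9400. The genes below were chosen after their values were seen. AT5G10210 averaged 6.59 in nitrogen cells and 5.28 in KCl cells, a difference of 1.30 with CHX and DEX and of 1.67 without DEX. AT1G76550, a subunit of the pyrophosphate-dependent phosphofructokinase of glycolysis, averaged 6.89 in nitrogen cells and 7.71 in KCl cells, a difference of -0.83, and of -0.57 without DEX. The chitinase genes AT2G43590 and AT2G43610 differed by -0.79 and -0.73. IAA34, a repressor of auxin response, averaged 6.04 in nitrogen cells and 6.84 in KCl cells, a difference of -0.80. Without DEX its difference was 0.00, and the test of the 2 effects against each other had an adjusted p of 1 (limma).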
